A study of Hordeum vulgare with 12 samples.

Results

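KNOX and BEL homeobox genes were followed through the first hours of crown-root induction in barley. The group holds 3 of the 63658 genes in the deposited count table: HORVU.MOREX.r2.7HG0595310.1, a BEL gene whose first listed Arabidopsis homolog is ATH1, HORVU.MOREX.r2.1HG0059780.1, a BEL gene whose first listed Arabidopsis homolog is BEL1-like homeodomain protein 9 (BLH9), and HORVU.MOREX.r2.4HG0343610.1, a knotted-like (KNOX) gene whose first listed Arabidopsis homolog is knotted-1-like 7 (KNAT7). They are called the ATH1-like, BLH9-like and KNAT7-like gene here, after sequence similarity alone. They were chosen by their identifiers because they fell in these same libraries, so their own levels and fold changes are given as a description, without a test.

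The libraries came from crowns of the barley cultivar Golden Promise, the 2 mm junction between roots and stem from which crown roots, which cereals form from the stem base, emerge. All seedlings were raised on 50 µM NPA, which blocks polar auxin transport, and the 0 h crowns were taken in that state. The 30 min, 1 h and 3 h crowns were taken after the NPA solution had been exchanged for one with 50 µM 1-NAA, a synthetic auxin, so NPA withdrawal, auxin and elapsed time cannot be told apart. Each time had 3 libraries, stated to be independent biological replicates, of 5 pooled crowns each.

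KNOX and BEL proteins are homeodomain transcription factors that pair with each other and bind DNA as a complex. In Arabidopsis, rice and maize, class I KNOX proteins are known for keeping shoot meristem cells undifferentiated, and they raise cytokinin and lower gibberellin there, while class II KNOX proteins act mostly in differentiating tissue. In Arabidopsis, ATH1 acts in the shoot meristem and at the base of the stem and lateral organs, BLH9 (also called BELLRINGER or PENNYWISE) works with class I KNOX proteins in the shoot apex, and KNAT7, a class II protein, is known for its part in forming the secondary cell wall.

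Between 16093892 and 34019480 reads per library were assigned to genes. Gene-assigned reads made up 71.9% to 78.4% of the total in 9 libraries. They made up less in 3, all of them replicate 1: 66.4% (0 h), 64.8% (30 min) and 56.0% (3 h). Class I KNOX transcripts, known from shoot meristems, were present in the crowns at every time (values per gene follow). CPM (a gene's reads relative to the effective library size) is the unit of level unless a value is said to be per kilobase of gene model. In these bulk samples, fewer cells of a type and less RNA per cell cannot be told apart.

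All 3 genes were at their lowest at 3 h, and at 1 h none had a mean below that at 0 h. The ATH1-like gene was close to its 0 h level up to 1 h and at 21.2% of it at 3 h, by the fitted fold change. The BLH9-like and KNAT7-like genes were higher at 1 h than at 0 h in every library before they dropped below their 0 h levels at 3 h, so their largest difference lay between 1 h and 3 h.

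The ATH1-like gene (chromosome 7H, 515518178 to 515520252, minus strand, coordinates as in the deposited table) had 19.4, 27.6 and 17.2 CPM in replicates 1 to 3 at 0 h, 19.3, 19.4 and 19.4 CPM at 30 min, 23.5, 25.8 and 20.6 CPM at 1 h and 5.98, 5.35 and 2.27 CPM at 3 h. The 3 h libraries lay below all 9 others, and the spread at 0 h took in all libraries of 30 min and 1 h. Its level at 3 h was 4.53 ± 1.99 CPM, against 21.4 ± 5.52 CPM at 0 h (SD, n = 3 each), a log2 fold change of -2.24 ± 0.302 (SE, edgeR). Against 1 h, where it had 23.3 ± 2.62 CPM, the log2 fold change at 3 h was -2.36 ± 0.302. The lowest library, replicate 3 of 3 h, held 55 reads of this gene, with a 95% Poisson interval of 41.4 to 71.6 reads that covers counting error only. Compared by replicate number, the 3 h library was below the 0 h library by log2 differences of -1.68, -2.35 and -2.88. At 30 min and 1 h the log2 fold changes against 0 h were -0.14 ± 0.283 and 0.12 ± 0.282, each smaller than its standard error.

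The BLH9-like gene (chromosome 1H, 468180898 to 468184937, minus strand) had 27.1, 25.7 and 23.4 CPM at 0 h, 20.7, 24.3 and 27.6 CPM at 30 min, 32.9, 34.9 and 32.0 CPM at 1 h and 17.3, 17.4 and 18.2 CPM at 3 h. All 1 h libraries were above all 0 h and 30 min libraries, and all 3 h libraries were below every other library. The gene stood at 33.3 ± 1.51 CPM at 1 h, against 25.4 ± 1.88 CPM at 0 h, a log2 fold change of 0.39 ± 0.127. At 3 h it was at 17.6 ± 0.474 CPM, a log2 fold change of -0.53 ± 0.128 against 0 h and of -0.92 ± 0.128 against 1 h. This was the smallest fold change of the 3 genes at 3 h, and also the one with the tightest replicates.

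The KNAT7-like gene (chromosome 4H, 608495354 to 608499934, minus strand) had 9.08, 6.97 and 12.3 CPM at 0 h, 8.82, 20.5 and 17.2 CPM at 30 min, 14.002, 21.8 and 19.97 CPM at 1 h and 3.17, 5.23 and 4.58 CPM at 3 h. The 1 h libraries were all above and the 3 h libraries all below the 0 h libraries, while the 30 min libraries overlapped both, replicate 1 lying within the 0 h range and replicates 2 and 3 within the 1 h range. Its level was 18.6 ± 4.07 CPM at 1 h, against 9.44 ± 2.68 CPM at 0 h, a log2 fold change of 0.97 ± 0.321. At 3 h it was at 4.33 ± 1.05 CPM, a log2 fold change of -1.13 ± 0.330 against 0 h and of -2.10 ± 0.335 against 1 h. By replicate number the 1 h to 3 h difference was nearly the same in each pair, with log2 values of -2.11, -2.04 and -2.11 for 3 h over 1 h, although the level at 1 h itself ran from 14.002 to 21.8 CPM. The pairs with 0 h were less alike. Their log2 values were -1.49, -0.41 and -1.41 for 3 h over 0 h, and 0.62, 1.63 and 0.70 for 1 h over 0 h.

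**Figure D1:**
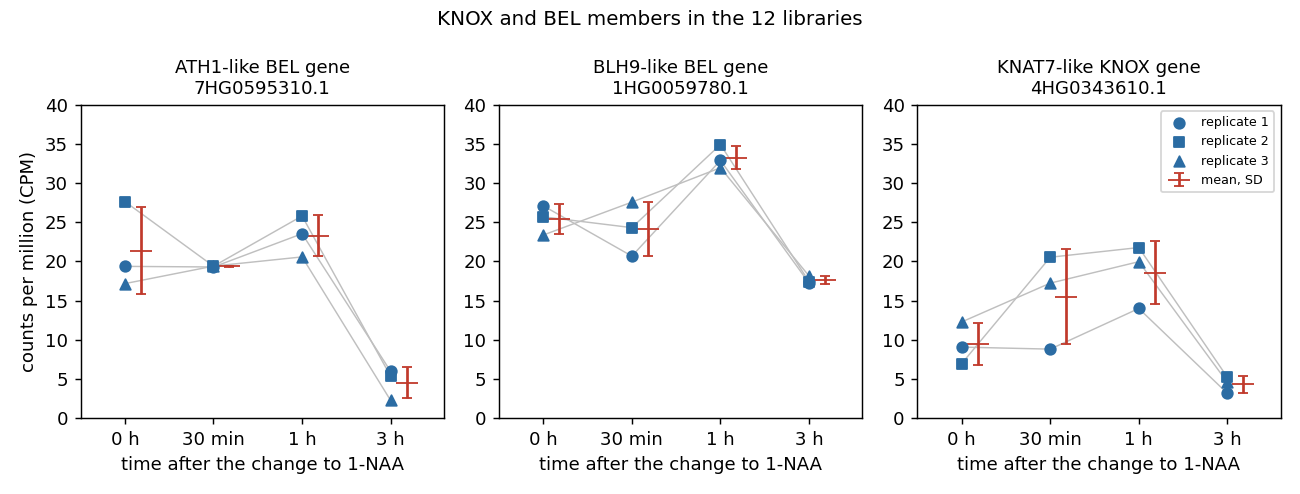
CPM (y axis) of the ATH1-like, BLH9-like and KNAT7-like gene in each of the 12 libraries by time (x axis). Grey lines join libraries with the same replicate number, and red bars give mean and SD of 3 libraries. The 3 h libraries are the lowest in each panel, from 2.27 to 5.98, 17.3 to 18.2 and 3.17 to 5.23 CPM, and in the middle and right panels the 1 h libraries stand above the 0 h libraries.

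At 3 h against 0 h, 1 of the 3 genes, the ATH1-like gene, was among the genes that edgeR's quasi-likelihood test calls lower (Benjamini-Hochberg adjusted p under 0.05), which are 0.799% of the 24920 genes tested. All 3 had their 3 h libraries entirely below their 0 h libraries, as did 6.63% of tested genes. Against 30 min, the ATH1-like and KNAT7-like genes were called lower, where 1.16% of tested genes were, and all 3 lay entirely below, as in 8.03% of tested genes. Against 1 h, all 3 were called lower, where 0.887% of tested genes were, and all 3 lay entirely below, as in 10.5% of tested genes. The BLH9-like and KNAT7-like genes lay entirely above 0 h at 1 h, as did 7.16% of tested genes. All 3 were called lower at 3 h against 0 h when the replicate number was a block, where 2.13% of all tested genes were, and by DESeq2, where 419 of 27889 genes were. Since the genes were picked for falling, nothing about them is read from these counts.

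Per kilobase of gene model, the 3 genes were close in level at first and spread apart at 3 h. At 0 h the BLH9-like gene had 14.6 ± 1.08, the ATH1-like gene 13.2 ± 3.39 and the KNAT7-like gene 9.96 ± 2.82 CPM per kilobase, and neighbours in that order overlapped within their SDs. At 1 h the values were 19.1 ± 0.868, 14.3 ± 1.61 and 19.6 ± 4.29 CPM per kilobase in the same order of genes. At 3 h the BLH9-like gene kept 10.1 ± 0.272, the KNAT7-like gene 4.57 ± 1.11 and the ATH1-like gene 2.79 ± 1.22 CPM per kilobase. The first of these stood apart from the other genes, which overlapped within their SDs.

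The rest of the family was searched for by words in the deposited gene and homolog descriptions (knotted, KNOX, BEL1-like, POX domain and the like), and 36 genes were found, the 3 genes included. Reads were found for 28 of them, and 25 passed the filter on low counts. Of the 22 other tested genes, 0 rose and 0 fell at 3 h against 0 h by edgeR, where 1.68% of all tested genes rose and 0.799% fell. Their median log2 fold change was 0.00, against a median of 0.00 over all tested genes. Of the 22, 1 had an unadjusted p under 0.05, as did 2596 of the 24920 tested genes. DESeq2 also called 0 of the 22, where it called 3.88% of all genes it tested. At 3 h against 1 h the median was -0.16, with 14 of 22 below 0 and 4 with an unadjusted p under 0.05 by edgeR. Over all 24920 tested genes the median was -0.01, with 12813 below 0 and 3712 with an unadjusted p under 0.05. Either tool called 0 of the 22 there, where edgeR called 2.08% and DESeq2 5.53% of the genes each tested. Against 0 h, 0 of the 22 were called by either tool at 30 min and at 1 h. By edgeR, 1 of them at 30 min and 2 at 1 h had an unadjusted p under 0.05, as did 1095 and 1432 of the 24920 tested genes. Of the genes each tool tested, edgeR called 0.00401% at 30 min and 0.0963% at 1 h, and DESeq2 called 0.387% and 0.443%.

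At 3 h against 0 h, 2.48% of all tested genes passed edgeR. Of the 5 tested class I KNOX genes, by their listed Arabidopsis or rice homolog, 0 passed there or in any other comparison. The most abundant was HORVU.MOREX.r2.1HG0012630.1, described as knotted-1-like 1, with 78.2 ± 14.9 CPM at 3 h, against 78.0 ± 3.72 CPM at 0 h, a log2 fold change of 0.00 ± 0.151 (edgeR adjusted p = 0.999). The gene HORVU.MOREX.r2.4HG0282910.1 has Arabidopsis KNAT1 and SHOOT MERISTEMLESS as its listed homologs, both known for maintaining the shoot meristem. It had 65.2 ± 11.6 CPM at 3 h, against 50.8 ± 5.55 CPM at 0 h (0.36 ± 0.179, edgeR adjusted p = 0.562). HORVU.MOREX.r2.5HG0426660.1, with the same Arabidopsis homologs, had 30.9 ± 12.3 CPM at 3 h, against 36.3 ± 6.49 CPM at 0 h (-0.23 ± 0.300, edgeR adjusted p = 0.999). HORVU.MOREX.r2.2HG0127090.1, described as knotted-1-like 1, had 30.7 ± 3.00 CPM at 1 h, against 23.9 ± 3.10 CPM at 0 h (0.36 ± 0.176, edgeR adjusted p = 0.880). At 3 h it had 24.9 ± 5.28 CPM, a log2 fold change of -0.30 ± 0.176 against 1 h (edgeR adjusted p = 0.471). These class I genes, like the KNAT3-like genes that follow, were named for their class after their values were seen.

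Among class II genes, the KNAT7-like gene was the least abundant of 3. The KNAT3-like genes HORVU.MOREX.r2.6HG0471020.1 and HORVU.MOREX.r2.7HG0617060.1 had 44.4 ± 1.60 and 39.9 ± 6.31 CPM at 3 h, against 46.7 ± 3.00 and 46.6 ± 3.30 CPM at 0 h. Their log2 fold changes were -0.07 ± 0.102 (edgeR adjusted p = 0.999) and -0.22 ± 0.133 (edgeR adjusted p = 0.722). At 1 h against 0 h they were at 0.13 ± 0.102 (edgeR adjusted p = 0.927) and -0.08 ± 0.133 (edgeR adjusted p = 0.962), where the KNAT7-like gene was at 0.97 ± 0.321. Whether these differ from the KNAT7-like gene was not tested, since that gene was selected for its change.

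Over the 4 times, 0 of the 22 passed edgeR's F-test, a count near the share of 2.30% over all tested genes. Since none passed, the 6 of the 22 with the smallest p in it are named. The smallest belonged to HORVU.MOREX.r2.3HG0251940.1, the other gene with Arabidopsis BLH9 as its first listed homolog. It had 22.8, 36.7 and 29.8 CPM at 3 h, against 46.0, 48.2 and 40.5 CPM at 0 h, so the groups did not overlap. At -0.59 ± 0.200 on the log2 scale it did not pass (edgeR adjusted p = 0.221). Once the replicate number was a block, it fell by 0.62 (edgeR adjusted p = 0.0393), the 1 gene of the 22 called in that fit, where 5.09% of all tested genes were called. It had 44.5 ± 7.75 CPM at 1 h, against 44.9 ± 3.95 CPM at 0 h (-0.01 ± 0.199, edgeR adjusted p = 0.996), and its difference from the BLH9-like gene was not tested.

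The knotted-1-like 6 gene HORVU.MOREX.r2.1HG0020560.1 had 26.4 ± 1.80 CPM at 1 h, against 19.0 ± 2.83 CPM at 0 h (0.47 ± 0.169, edgeR adjusted p = 0.757). The class I gene HORVU.MOREX.r2.4HG0278420.1 was near the detection limit, with 37 reads over the 3 libraries at 3 h, against 19 at 0 h (0.99 ± 0.766, edgeR adjusted p = 0.890). The BEL1-like homeodomain 6 gene HORVU.MOREX.r2.4HG0301970.1 had 0.984 ± 0.228 CPM at 3 h, against 1.49 ± 0.394 CPM at 0 h (-0.60 ± 0.382, edgeR adjusted p = 0.771). Its mean was highest at 1 h, at 2.12 ± 0.484 CPM, and the log2 fold change at 3 h against 1 h was -1.10 ± 0.379 (edgeR adjusted p = 0.193). HORVU.MOREX.r2.5HG0350030.1, described as BEL1-like homeodomain protein 6, had 47.2 ± 6.33 CPM at 3 h, against 61.3 ± 14.1 CPM at 0 h (-0.38 ± 0.179, edgeR adjusted p = 0.519). The gene HORVU.MOREX.r2.1HG0038010.1, a model of 312 bases described as BEL1-like homeodomain 10, had 52.0 ± 15.6 CPM at 3 h, against 35.4 ± 3.45 CPM at 1 h (0.55 ± 0.260, edgeR adjusted p = 0.349). It had started at 57.8 ± 17.2 CPM at 0 h. Against 0 h its log2 fold change was -0.70 ± 0.260 at 1 h (edgeR adjusted p = 0.787) and -0.15 ± 0.259 at 3 h (edgeR adjusted p = 0.999). With the replicate number as a block this last gene was called higher at 3 h than at 1 h (0.51, edgeR adjusted p = 0.0375), and HORVU.MOREX.r2.3HG0251940.1 was called lower (-0.59, edgeR adjusted p = 0.0413). These were 2 of the 22, where 6.79% of all tested genes were called.

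**Figure D2:**
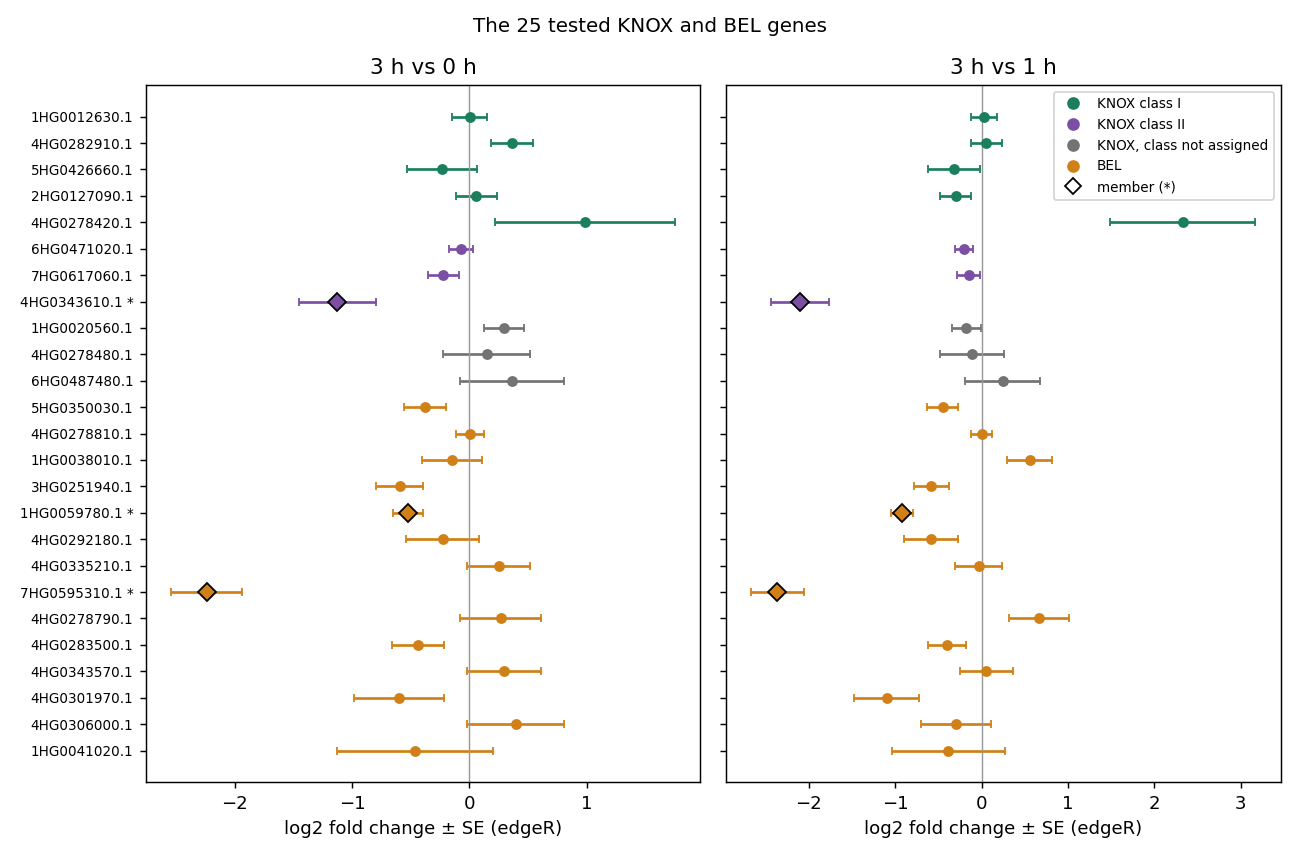
Log2 fold change with SE (x axis) of the 25 tested KNOX and BEL genes (rows, by class and then by mean level) at 3 h against 0 h (left) and at 3 h against 1 h (right). Diamonds and asterisks mark the ATH1-like, BLH9-like and KNAT7-like genes, which were chosen because they fell and lie at -2.24, -0.53 and -1.13 on the left and at -2.36, -0.92 and -2.10 on the right.

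Partners, regulators and hormone genes tied to KNOX activity in other plants were described from lists of words. OVATE family proteins bind KNOX and BEL proteins and repress transcription with them. Of 17 tested OVATE genes, 1 rose and 0 fell at 3 h against 0 h and 16 did not pass, where 1.68% of all genes rose. Their median log2 fold change was 0.05, against 0.00 over all genes. An unadjusted p under 0.05 by edgeR was found for 8 of the 17, and for 2596 of all 24920 tested genes. The gene that rose, HORVU.MOREX.r2.1HG0040790.1, had 16.5 ± 1.18 CPM at 3 h, against 6.17 ± 2.09 CPM at 0 h (1.43 ± 0.298, edgeR adjusted p = 0.0274). Leaving out any of 4 libraries (0 h replicates 2 and 3, 3 h replicates 2 and 3) ended the call, with a highest edgeR adjusted p of 0.121. Among those that did not pass, 2 with differences in opposite directions are given, picked after their values were seen. The gene HORVU.MOREX.r2.7HG0587040.1, similar to OFP13, had 0.607 ± 0.0495 CPM at 3 h, against 2.01 ± 0.265 CPM at 0 h (-1.71 ± 0.422, edgeR adjusted p = 0.0608). The other tested genes similar to OFP13 were at 0.87 ± 0.363, 0.05 ± 0.388 and -1.02 ± 0.599 and did not pass. The gene HORVU.MOREX.r2.1HG0062720.1, similar to OFP4, a known partner of KNAT7 in Arabidopsis, had 8.10 ± 1.72 CPM at 3 h, against 3.67 ± 1.14 CPM at 0 h (1.14 ± 0.296, edgeR adjusted p = 0.0801). Of the 2 tested repressor and boundary genes, a rough sheath 2 gene (HORVU.MOREX.r2.5HG0365610.1, the maize protein being a repressor of class I KNOX genes) and a gene similar to CUP-SHAPED COTYLEDON 2 (HORVU.MOREX.r2.7HG0590600.1), 0 passed by edgeR and 0 had an unadjusted p under 0.05. Both were low, at 0.418 ± 0.162 and 1.55 ± 0.130 CPM at 3 h, against 0.380 ± 0.168 and 1.84 ± 0.747 CPM at 0 h.

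Gibberellin oxidases make or inactivate gibberellin. Of 13 tested, 4 rose and 0 fell at 3 h against 0 h, and 9 did not pass, with a median log2 fold change of 1.15. Of all tested genes 1.68% rose and 0.799% fell, with a median of 0.00. Of the 4, 3 are described as gibberellin 2-oxidases or 2-beta-dioxygenases, enzymes that inactivate gibberellin. HORVU.MOREX.r2.1HG0019640.1 had 35.1 ± 0.766 CPM at 3 h, against 8.42 ± 1.90 CPM at 0 h (2.07 ± 0.206, edgeR adjusted p = 0.000201). HORVU.MOREX.r2.2HG0150970.1 had 36.7 ± 9.84 CPM at 3 h, against 0.637 ± 0.462 CPM at 0 h (5.99 ± 0.939, edgeR adjusted p = 0.00459). The other 2 lost the call without single libraries: HORVU.MOREX.r2.1HG0071640.1 rose by 2.94 ± 0.585 on the log2 scale (edgeR adjusted p = 0.0202, and up to 0.106 when 0 h replicate 1 or 3, or 3 h replicate 2, was left out). HORVU.MOREX.r2.3HG0199220.1, described as a 3-beta-hydroxylase, which makes active gibberellin, rose by 3.28 ± 0.713 (edgeR adjusted p = 0.0330, and up to 0.144 when 0 h replicate 2 or 3, 1 h replicate 2, or 3 h replicate 2 or 3 was left out). At 3 h against 1 h, 3 of the 13 rose and 1 fell, where 1.19% of all tested genes rose and 0.887% fell. The gene that fell, HORVU.MOREX.r2.3HG0240680.1, is also described as a gibberellin 2-oxidase and had 6.96 ± 0.576 CPM at 3 h, against 34.2 ± 14.2 CPM at 1 h (-2.30 ± 0.349, edgeR adjusted p = 0.00545). The genes that rose at 3 h against 1 h were HORVU.MOREX.r2.2HG0150970.1 (lost without 1 h replicate 1 or 3 h replicate 3), HORVU.MOREX.r2.1HG0019640.1 (kept in all 12 fits without 1 library) and HORVU.MOREX.r2.1HG0071660.1 (lost in 10 of them).

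Cytokinin synthesis genes moved in both directions at 3 h against 0 h: of 13 tested, 5 rose, 1 fell and 7 did not pass, with a median log2 fold change of 0.53. Of all tested genes 1.68% rose and 0.799% fell. The LOG-type genes, described as cytokinin riboside 5'-monophosphate phosphoribohydrolases and known to release active cytokinin, gave 4 of the rises. HORVU.MOREX.r2.4HG0339680.1 had 98.7 ± 23.7 CPM at 3 h, against 2.52 ± 0.860 CPM at 0 h (5.31 ± 0.569, edgeR adjusted p = 0.000349). HORVU.MOREX.r2.1HG0033760.1, HORVU.MOREX.r2.3HG0222470.1 and HORVU.MOREX.r2.3HG0235580.1 rose by 3.63 ± 0.373, 3.09 ± 0.394 and 2.04 ± 0.195 on the log2 scale (edgeR adjusted p = 0.000260, 0.00111 and 0.000159). The remaining 2 genes, named because each count was small, are similar to Arabidopsis adenylate isopentenyltransferases, which carry out the first step of cytokinin synthesis. The IPT1-like gene HORVU.MOREX.r2.3HG0233070.1 rose to 4.06 ± 1.99 CPM at 3 h, against 0.486 ± 0.375 CPM at 0 h (2.99 ± 0.572, edgeR adjusted p = 0.0157, and up to 0.0860 without replicate 3 of 0 h or of 3 h). The IPT5-like gene HORVU.MOREX.r2.5HG0434790.1 fell to 1.87 ± 1.09 CPM at 3 h, against 12.03 ± 2.16 CPM at 0 h (-2.67 ± 0.400, edgeR adjusted p = 0.00333), and it was at 14.5 ± 2.89 CPM at 1 h. Over the 4 lists of partners and hormone genes together, 11 genes passed at 3 h against 0 h, and 18 with the replicate number as a block.

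**Figure D3:**
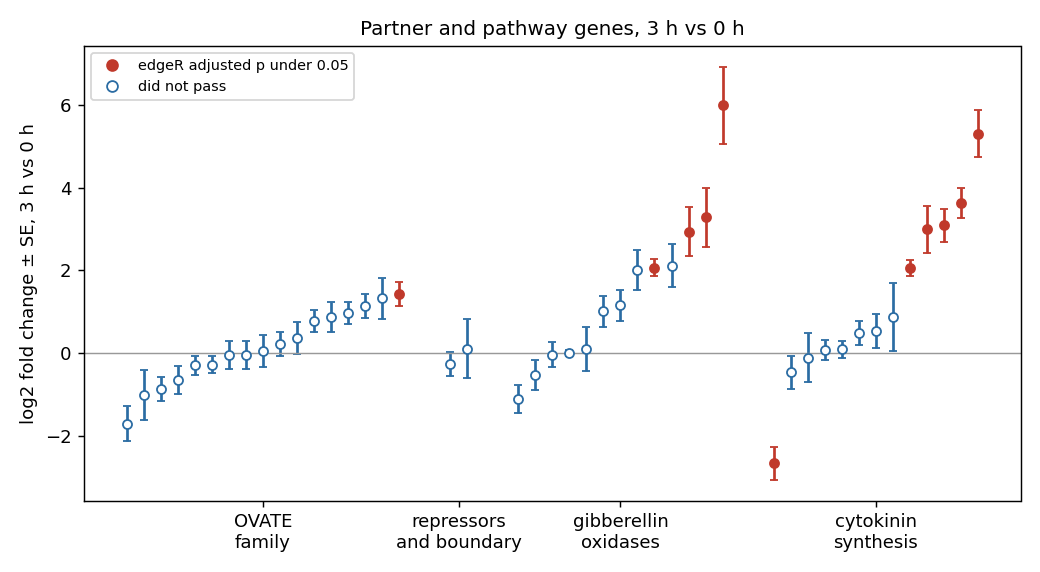
Log2 fold change at 3 h against 0 h with SE (y axis) of each tested gene of the 4 lists (x axis, ordered by value within a list). Filled red points passed edgeR at an adjusted p under 0.05 over all genes: 1 OVATE gene, 4 gibberellin oxidases, and 6 cytokinin synthesis genes of which 1 lies below 0.

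Transcripts of green tissue were also lower at 3 h than at 0 h. The summed level of 197 photosystem and light-harvesting genes was 4520 to 5272 CPM at 3 h, against 6364 to 8466 CPM at 0 h, and 19 of the 87 tested fell while 0 rose by edgeR, with a median log2 fold change of -0.40, where 0.799% of all tested genes fell and 1.68% rose. The sum was 5557 to 6651 CPM at 30 min. At 1 h it was 5657 to 6882 CPM. The median log2 fold change of the 87 against 0 h was -0.15 at 30 min and -0.19 at 1 h. Of the 87, 63 lay below 0 at 30 min and 66 at 1 h, as did 13048 and 12589 of all 24920 tested genes. None of the 87 was called by edgeR at either time, where 0.00401% and 0.0963% of all tested genes were. By edgeR, 0 of 16 tested grain genes, 0 of 5 root hair genes and 1 of 4 phloem genes passed, the last higher at 3 h, where 2.48% of all tested genes passed. Grain storage protein genes (55) summed to 281 to 811 CPM at 3 h, against 383 to 467 CPM at 0 h, and the 6 phloem genes to 36.8 to 47.6 CPM at 3 h, against 29.6 to 32.3 CPM at 0 h. Genes found by the words root hair (16, mostly homologs of the membrane GTPase RHD3, which mark no cell type) summed to 105 to 119 CPM at 3 h, against 95.8 to 120 CPM at 0 h. The part of these in the fall of the 3 genes was not tested. Of the photosystem genes 68 had no read in any library, of the grain genes 20 and of the phloem genes 2.

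For each of the 3 genes, the 4 described genes most alike over the 12 libraries were sought among 21514 genes with a mean of at least 1 CPM, by Pearson's r of log2 CPM. The measure is a description over libraries that share times and replicate numbers. For the ATH1-like gene these were HORVU.MOREX.r2.2HG0148720.1, an NF-Y subunit B gene (r = 0.974, Spearman's rho = 0.720), the BTB/POZ gene HORVU.MOREX.r2.2HG0113320.1 (r = 0.955, rho = 0.601), the cellulose synthase-like D4 gene HORVU.MOREX.r2.7HG0623310.1 (r = 0.949, rho = 0.783) and the lipid-binding gene HORVU.MOREX.r2.2HG0093700.1 (r = 0.948, rho = 0.888). The NF-Y gene, for a subunit of a CCAAT-binding transcription factor, had 2.26 ± 0.932 CPM at 3 h, against 5.48 ± 1.06 CPM at 0 h.

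For the KNAT7-like gene the closest profile was that of the BAG-type chaperone regulator gene HORVU.MOREX.r2.7HG0570260.1 (r = 0.977, rho = 0.986), with 39.0 ± 7.85 CPM at 3 h, against 55.5 ± 12.5 CPM at 0 h. MYB genes followed, HORVU.MOREX.r2.2HG0152390.1 (r = 0.961) and HORVU.MOREX.r2.7HG0549810.1 (r = 0.958), the second at 0.480 ± 0.5005 CPM at 3 h, against 3.18 ± 0.998 CPM at 0 h. The cellulose synthase gene HORVU.MOREX.r2.5HG0441300.1, similar to Arabidopsis CESA6 of the primary cell wall, came next (r = 0.956), with 91.7 ± 16.1 CPM at 3 h, against 149.97 ± 45.3 CPM at 0 h. For the BLH9-like gene the closest were the patatin gene HORVU.MOREX.r2.7HG0610260.1 (r = 0.929), the receptor-like kinase gene HORVU.MOREX.r2.5HG0387970.1 (r = 0.928), the ethylene response factor gene HORVU.MOREX.r2.2HG0170410.1, similar to ERF008 (r = 0.916), and the Ycf4 gene HORVU.MOREX.r2.1HG0056100.1 (r = 0.907). No gene stood in more than 1 of these 3 short lists.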

How the data were processed

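The authors deposited raw, unnormalized read counts for 63658 gene models. Their tools, per the submitters' processing notes, include HISAT2 2.0.5, Subread 1.5.2, SAMtools and bcl2fastq. For genome build, strand setting and reads that match several genes the entry is "not given in the sources used here". The library kit is directional, per the labels' protocols. Gene descriptions, homologs and other values, of which the total reads per library were used, came from the authors' second deposited table.

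A filter (edgeR's filterByExpr, with 10 as minimum count and 15 as minimum total) kept 24920 genes (26328 were without reads), and TMM gave the scaling. edgeR 4.0.16 in R 4.3.3 fitted 1 quasi-likelihood model of the 4 times (8 residual degrees of freedom), with Benjamini-Hochberg adjustment over all tested genes. The SE of a log2 fold change is its size over the root of F. p-values measure the spread between such pools of crowns. The model held time alone, so its p-values and SEs do not take account of replicate numbers shared between times. The fit with a replicate block does. DESeq2 1.42.0, another scaling, no filter, a replicate block and fits without single libraries were alternatives. A floor of 3 counts is worth 0.0849 to 0.193 CPM, depending on the library, and covers counting error only. Figures were drawn with matplotlib 3.10.9. The procedure was tested on simulated data.

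The 3 genes and the lists were chosen with earlier results of these data known. Words of the family list that matched an ABC transporter and KNOX-binding proteins were excluded after the descriptions were read, and xylem words matched no gene. Named genes are the 3 genes, the 6 family genes with the smallest time course p where none passed, at most 4 per pathway list that passed at 3 h against 0 h, and the 4 closest profiles per gene. Beyond this rule, and after their values were seen, the text names class I and KNAT3-like genes, 2 OVATE genes, both repressor and boundary genes, the other 2 cytokinin synthesis genes that passed, the gibberellin oxidases that passed at 3 h against 1 h, and genes near the 3 genes. KNOX class was assigned by the listed Arabidopsis or rice homolog. Deviations from the group means correlated between libraries of the same replicate number at 0.203 to 0.595 for 3 h and 0 h, and at 0.139 to 0.398 for 3 h and 1 h, so the numbers were read as pairs there. Over all times 17 of 18 such pairs exceeded 0.1, the lowest being 0.0958 (1 h with 0 h), as did 8 of 36 pairs with unlike numbers. Libraries of one time were not duplicates (chi-square per degree of freedom 16.6 to 91.4).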

Additional observations from a re-analysis of the deposited data

How the results depend on the processing

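Over 17 alternatives each, the log2 fold change at 3 h against 0 h stayed between -2.55 and -1.92 for the ATH1-like gene, -0.58 and -0.47 for the BLH9-like gene and -1.30 and -0.88 for the KNAT7-like gene. At 1 h against 0 h it stayed between 0.33 and 0.44 for the BLH9-like gene and between 0.80 and 1.22 for the KNAT7-like gene, and lay on both sides of 0 for the ATH1-like gene (-0.01 to 0.35). At 30 min it lay on both sides of 0 for the ATH1-like gene (-0.28 to 0.086) and the BLH9-like gene (-0.17 to 0.073). For the KNAT7-like gene it stayed between 0.47 and 0.997. The BLH9-like value was 0.073 without the 3 libraries of low assigned share, against -0.07 with them, and the cause was not tested. In fits without 1 library it reached 0.032. With the replicate number as a block, 1 of the 22 other family genes was called at 3 h against 0 h, 2 at 3 h against 1 h and 1 over the time course (HORVU.MOREX.r2.1HG0038010.1, edgeR adjusted p = 0.0389), against 0 without it. That fit called 5.09%, 6.79% and 5.80% of all tested genes in the same order. The other 4 comparisons gave 0 under every alternative. For the 4 partner and hormone lists at 3 h against 0 h the count of 11 was 18 with the block and 17 with DESeq2, and 7 to 14 over the 12 fits without 1 library, the lowest without replicate 3 of 0 h. Over all genes, 199 were called lower at 3 h against 0 h, 531 with the block, 419 by DESeq2 and 83 without replicate 3 of 3 h. Of the 36 family genes 8 had no read in any library, and whether depth limits them was not tested.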

Other observations

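The KNAT7-like KNOX gene lies near a BEL gene on chromosome 4H. The gene HORVU.MOREX.r2.4HG0343570.1 is 142237 bases away with 3 gene models between, and the first listed rice homologs of both genes also stand close in the numbering of rice chromosome 3. This neighbour had 1.81 ± 0.339 CPM at 3 h, against 1.49 ± 0.412 CPM at 0 h (SD, n = 3 each), or 0.29 ± 0.313 (SE) on the log2 scale (edgeR adjusted p = 0.978). The PLAC8 family gene HORVU.MOREX.r2.4HG0343600.1, 1158 bases from the KNAT7-like gene, had 67.1 CPM at 3 h, against 63.3 CPM at 0 h (0.08 ± 0.160, edgeR adjusted p = 0.999).

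Of the 12 genes that are the 2 nearest on either side of the 3 genes, 5 were tested at 3 h against 0 h and 1 passed, where 2.48% of all tested genes did. That gene, HORVU.MOREX.r2.1HG0059760.1, is described as a transcription factor and lies 192554 bases from the BLH9-like gene. It had 72.6 CPM at 3 h, against 111 CPM at 0 h (-0.61 ± 0.133, edgeR adjusted p = 0.0325), and lost the call in 9 of the 12 fits without 1 library, with a highest adjusted p of 0.118.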
